A study of Mus musculus with 12 samples.

Results

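Fibroblasts and adipocyte precursors were followed through 9 marker genes, taken by symbol: Pdgfra, Pdgfrb, Dpp4, Pi16, Cd34, Ly6a, Dcn, Lum and Thy1. Of these 9, 8 had a probe set naming only that gene on the array, and they are described here among 18194 genes measured in the same way. Ly6a was named by no probe set in the annotation used here, so it has no value. The 8 genes had 16 probe sets. For each gene the brightest one over the 12 arrays is given, and the others of the 5 genes with several are set beside it as a check.

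The samples are total RNA of mice, and each of the 6 groups has 2 arrays, lettered a and b. Mice labelled Smad3-/-, a disruption carried by the whole animal on a mixed C57BL/6 and NIH Black Swiss background, ate a high fat diet with 55% fat (KO_HFD) or a regular diet (KO_RD). Wild-type C57BL/6 mice ate the same diets (WT_HFD and WT_RD). Mice with diet-induced obesity, of a strain labelled C57J/B6, received, over 8 weeks and by 3 intraperitoneal injections a week, the anti-TGF-beta antibody 1D11 (DIO_ATGF) or the IgG 13C4 (DIO_IgG). The labels give neither tissue nor age and do not say that arrays a and b come from separate animals, so p-values measure the spread between these samples, which may be technical. Genotype and strain background differ together and cannot be told apart.

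TGF-beta binds a receptor kinase that activates Smad2 and Smad3, which enter the nucleus and change transcription, and fibroblasts respond to it by making more extracellular matrix. White fat and many other tissues hold mesenchymal cells marked by Pdgfra, the receptor for several platelet-derived growth factors, and perivascular cells marked by Pdgfrb, its relative. In mouse fat, Dpp4 and Pi16 mark early interstitial progenitors, while Cd34, Ly6a and Thy1 lie on the surface of a wider range of stromal cells. Dcn and Lum encode decorin and lumican, small leucine-rich proteoglycans that bind collagen fibrils. In RNA of a whole sample, fewer cells of a type and less RNA per cell cannot be told apart.

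Promoter windows from RefSeq (GRCm38.p6, 300 bases around the gene start used in that table) were held for 4 of the genes. The windows of Pdgfra and Pi16 are shown because these genes differed in opposite directions between KO_HFD and KO_RD. Capitals mark AGAC and its reverse complement GTCT, the short element that Smad3 binds.
Pdgfra, chr5:75152001-75152300, plus strand: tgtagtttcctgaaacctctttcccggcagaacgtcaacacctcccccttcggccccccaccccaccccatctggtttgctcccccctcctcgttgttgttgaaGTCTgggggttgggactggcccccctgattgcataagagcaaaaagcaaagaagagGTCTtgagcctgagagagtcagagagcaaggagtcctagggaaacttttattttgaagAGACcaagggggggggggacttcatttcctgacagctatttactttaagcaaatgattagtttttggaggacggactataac
Pi16, chr17:29318632-29318931, plus strand: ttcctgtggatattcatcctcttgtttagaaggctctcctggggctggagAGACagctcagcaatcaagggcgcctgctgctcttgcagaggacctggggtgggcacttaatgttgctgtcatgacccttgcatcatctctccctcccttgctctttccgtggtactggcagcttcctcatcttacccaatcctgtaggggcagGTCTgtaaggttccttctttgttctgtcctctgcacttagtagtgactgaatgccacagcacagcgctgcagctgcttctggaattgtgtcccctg
The Pdgfra window held 3 such elements and the Pi16 window 2. Each of the windows of Dpp4 and Cd34 also held 2. Such a match is common, since 88.0% of 32851 promoter windows of the same length held at least 1, with a median of 2. The palindrome GTCTAGAC, found in 0.2% of windows, was in none of the 4. TATAAA, found in 8.3% of all windows, was in that of Dpp4, and CCAAT or its reverse complement ATTGG (37.4% of windows) and GGCGCC (11.9%) were in that of Pi16. The Pdgfra window lies inside the gene's annotated span, which begins at 75151322, and the Pi16 window crosses the start of its gene's span at 29318796.

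The deposited values are log2 RMA values. Array medians were 6.32 to 6.39 in the 8 diet and genotype arrays and 6.03 to 6.04 in the 4 antibody arrays, so levels are compared only within each experiment. The 2 arrays of a group correlated at 0.992 to 0.996 over genes. Smad3 itself was not lower in the mice labelled Smad3-/-. Its brightest probe set read 9.14 and 9.03 in KO_HFD against 8.88 and 8.95 in WT_HFD, and 9.10 and 9.17 in KO_RD against 8.86 and 8.94 in WT_RD. No source used here gives the position of that probe set relative to the disrupted part, so it checks nothing about the labels. The arrays also differed in genes of other tissues. The 5 epididymis genes averaged 13.21 on both KO_RD arrays, against 5.84 and 6.04 on the WT_RD arrays. They averaged 7.76 and 7.80 in WT_HFD and 6.53 and 6.85 in KO_HFD. The 7 skeletal muscle genes averaged 11.12 and 11.21 in KO_HFD, against 5.67 and 5.79 in WT_HFD, and 11.38 and 11.39 in DIO_ATGF, against 5.75 and 5.82 in DIO_IgG. On the regular diet they averaged 6.98 and 7.19 in WT_RD and 6.98 and 7.10 in KO_RD. The 4 brown adipocyte genes averaged 10.76 and 10.91 in KO_HFD, against 6.97 and 7.13 in WT_HFD, and 10.95 and 11.13 in KO_RD, against 6.88 and 6.97 in WT_RD. The 7 macrophage genes averaged 7.37 and 7.51 in KO_RD, against 8.28 and 8.33 in WT_RD, with 5 of them called lower. The WT_RD arrays also stood apart in the control probes that compare the 3' with the 5' end of a transcript. The 3' minus 5' log2 difference of Gapdh was 0.28 to 0.50 on the other 6 diet and genotype arrays and 0.12 and 0.14 in WT_RD, and that of actin was 0.90 to 1.12 on those 6 and 0.80 and 0.77 in WT_RD. In the antibody experiment that of actin was 0.87 and 0.75 in DIO_ATGF and 0.61 and 0.67 in DIO_IgG, without overlap, while that of Gapdh overlapped. The part of all these differences in the results on the marker genes was not tested.

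The PDGF receptors followed different orders across the groups. Pdgfra read 7.30 and 7.34 in KO_HFD, 7.03 and 7.21 in WT_HFD, 7.92 and 7.67 in KO_RD and 7.48 and 7.47 in WT_RD. It was highest in KO_RD and lowest in WT_HFD, and its 4 diet and genotype groups did not overlap. In the antibody experiment Pdgfra read 9.75 and 9.83 in DIO_ATGF and 9.24 and 9.10 in DIO_IgG, again without overlap. Pdgfrb read 7.78 and 7.57 in KO_HFD, 7.21 and 7.72 in WT_HFD, 6.97 and 7.10 in KO_RD and 7.75 and 7.92 in WT_RD. Only KO_RD lay apart from all the others, below them, while the WT_HFD arrays lay far from each other and overlapped KO_HFD. With the antibody Pdgfrb read 10.00 and 9.97, against 9.96 and 10.00 with IgG, so those groups overlapped.

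The surface markers of the precursors are given next. Dpp4, a membrane peptidase also known as CD26, read 6.78 and 6.82 in KO_HFD, 6.94 and 6.79 in WT_HFD, 7.15 and 7.06 in KO_RD and 6.96 and 6.53 in WT_RD. The KO_RD arrays were the highest, and the WT_RD arrays spanned every value of the 2 high fat diet groups. Dpp4 read 6.48 and 6.68 in DIO_ATGF and 6.26 and 6.12 in DIO_IgG. Pi16, which encodes a secreted or membrane-anchored peptidase inhibitor, read 7.82 and 7.85 in KO_HFD, 7.31 and 7.74 in WT_HFD, 7.33 and 7.43 in KO_RD and 8.08 and 7.87 in WT_RD. WT_RD was the highest group, and KO_RD lay inside the range of WT_HFD. Pi16 read 8.77 and 8.71 in DIO_ATGF and 8.61 and 8.60 in DIO_IgG.

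Cd34, a sialomucin of stromal, endothelial and blood precursor cells, read 8.35 and 8.39 in KO_HFD, 8.33 and 8.29 in WT_HFD, 8.41 and 8.12 in KO_RD and 8.46 and 8.33 in WT_RD. The KO_RD arrays alone spanned nearly the whole range of the 8 arrays. Cd34 read 9.88 and 9.81 in DIO_ATGF and 10.02 and 10.09 in DIO_IgG. Thy1, a lipid-anchored surface protein of fibroblasts, T cells and neurons, read 6.65 and 6.53 in KO_HFD, 6.32 and 6.07 in WT_HFD, 6.35 and 6.50 in KO_RD and 6.64 and 6.66 in WT_RD. It was lowest in WT_HFD, and KO_HFD overlapped WT_RD. Thy1 read 7.80 and 7.47 in DIO_ATGF and 8.20 and 8.03 in DIO_IgG. The T cell genes, which share Thy1 as a marker, averaged 5.71 and 5.80 in DIO_ATGF and 5.66 and 5.75 in DIO_IgG.

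Dcn and Lum are neighbours on chromosome 10 in GRCm38.p6, at chr10:97479500-97518163 and chr10:97565501-97572703. A gap of 47.3 kb with no annotated gene separates them, and the values of the neighbours ran in different orders. Dcn read 12.82 and 12.90 in KO_HFD, 12.64 and 12.62 in WT_HFD, 12.65 and 12.47 in KO_RD and 12.89 and 12.76 in WT_RD. KO_HFD and WT_RD overlapped at the top, and WT_HFD lay inside the range of KO_RD. Dcn read 13.83 and 13.77 in DIO_ATGF and 13.50 and 13.54 in DIO_IgG. Lum read 7.81 and 7.85 in KO_HFD, 8.03 and 7.95 in WT_HFD, 7.78 and 7.80 in KO_RD and 8.02 and 7.87 in WT_RD. Both knockout groups lay just below both wild-type groups. Lum read 10.00 on both DIO_ATGF arrays, against 11.04 and 11.13 on the DIO_IgG arrays, the widest separation of any of the 8 genes in either experiment.

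**Figure D1:**
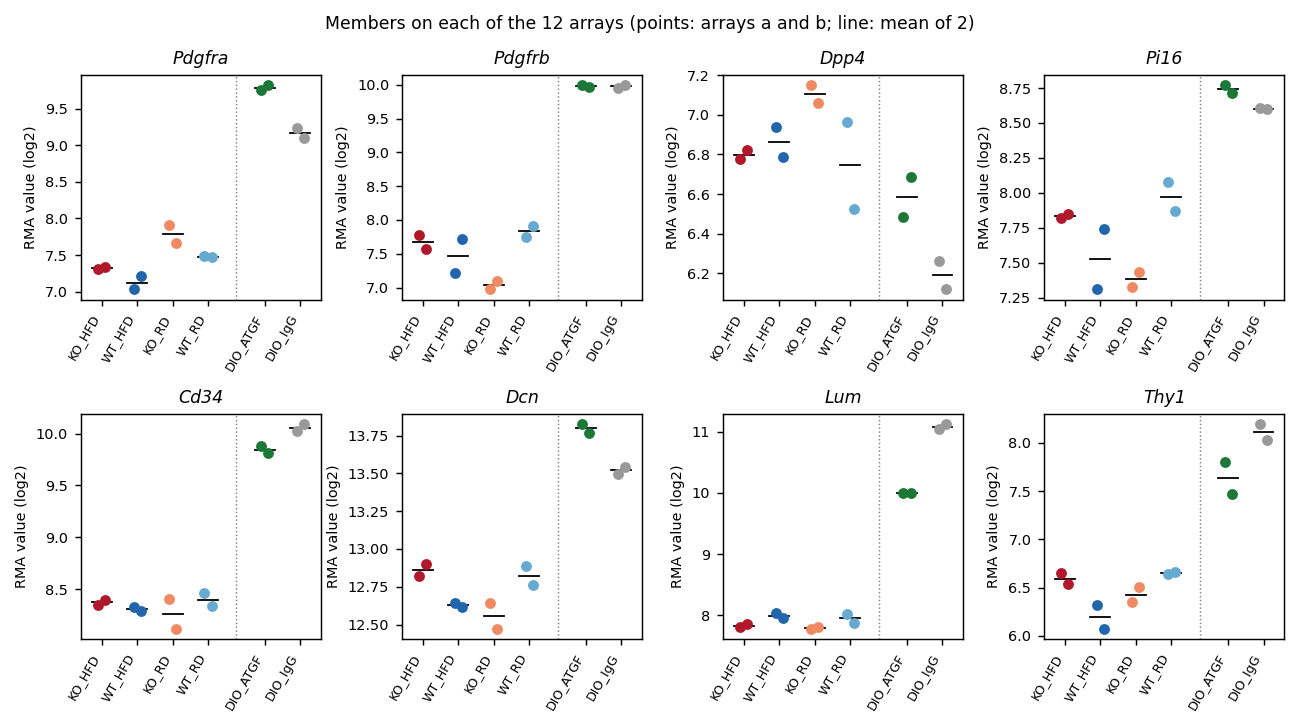
RMA values (log2, y axis) of the 8 measured marker genes on each array, with 1 panel per gene and its own y range. Points are arrays a and b, the line is their mean, and the dotted line parts the diet and genotype experiment from the antibody experiment; Lum sits at 10.00 in DIO_ATGF, below 11.04 and 11.13 in DIO_IgG, while Pdgfrb overlaps there.

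All differences below are log2 differences with their SE from limma, with p-values adjusted by Benjamini-Hochberg over all 18194 genes, and a gene was called at an adjusted p under 0.05. The first comparison sets Smad3-/- mice against wild-type mice on the regular diet, where genotype and strain background differ together. Pdgfrb fell by 0.79 ± 0.13 in KO_RD against WT_RD, a 1.73-fold lower value (limma adjusted p = 2.94e-05). Pi16 fell by 0.59 ± 0.13, or 1.51-fold (limma adjusted p = 0.000756). Hence 2 of 8 genes were called, both lower, where 24.0% of all genes were called and 15.6% were called lower, a share close to that background. Of all called genes 35% were higher as deposited and 48.7% after quantile normalization over all arrays, under which Pdgfra was called higher as well. Of the 2833 genes called lower, 925 fell further than Pdgfrb. The median difference of the 8 genes was -0.19, against 0.04 over all genes. Pdgfra had a difference of 0.31 ± 0.12 (limma adjusted p = 0.0527) and Dpp4 one of 0.36 ± 0.15 (limma adjusted p = 0.0764), both in the other direction and not called. Dcn differed by -0.26 ± 0.10 (limma adjusted p = 0.0597). The intervals of Cd34 (-0.36 to 0.09), Lum (-0.37 to 0.06) and Thy1 (-0.51 to 0.07) all held 0.

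On the high fat diet none of the 8 genes was called between KO_HFD and WT_HFD by limma, where 10.8% of all genes were. Thy1, Pi16 and Dcn had the lowest adjusted p of the 8. Thy1 differed by 0.39 ± 0.14 (limma adjusted p = 0.076), Pi16 by 0.31 (limma adjusted p = 0.151) and Dcn by 0.23 (limma adjusted p = 0.187). The median of the 8 genes was 0.20, against -0.01 over all genes. Pdgfrb differed by 0.21, with a 95% interval of -0.07 to 0.48 that does not reach the fall seen on the regular diet. The count depends on the settings. Without WT_HFD b the differences of Pdgfrb and Pi16 were 0.46 and 0.52. With quantile normalization over all arrays Thy1 and Dcn were called higher, and with the second brightest probe set Dpp4 was called lower.

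The diet was then compared within each genotype. In wild-type mice 3 of 8 genes were called, all lower in WT_HFD than in WT_RD, the group that stood apart in the 3' and 5' control probes, where 10.8% of all genes were called and 6.11% were called lower. Pi16 fell by 0.45 (limma adjusted p = 0.0203), Thy1 by 0.45 (limma adjusted p = 0.0335) and Pdgfra by 0.36 (limma adjusted p = 0.0493). The sizes were small, since 807 of the 1112 genes called lower fell further than Pi16. Pdgfrb differed by -0.36 (limma adjusted p = 0.0872), and the median of the 8 genes was -0.28 against 0.02 over all genes. The call of Pdgfra lies at the threshold and held in 8 of 22 other settings. Without WT_RD a the calls of Pi16, Thy1 and Pdgfra were all lost. Without WT_RD b those of Thy1 and Pdgfra were lost, and without WT_HFD a those of Pi16 and Pdgfra. Fewer of all genes were called in each of these fits.

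In Smad3-/- mice the genes differed between the diets in both directions. Pdgfrb rose by 0.64 ± 0.13 in KO_HFD against KO_RD, or 1.56-fold (limma adjusted p = 0.00071), Pi16 rose by 0.45 (limma adjusted p = 0.0125) and Dcn rose by 0.30 (limma adjusted p = 0.0396). Pdgfra fell by 0.47 ± 0.12, or 1.38-fold (limma adjusted p = 0.00452). In all, 4 of 8 genes were called, with 3 higher and 1 lower, where 17.3% of all genes were called, 11.5% higher and 5.82% lower. The rise of Dcn was small, with 2080 of 2091 genes called higher rising further, and it held in 7 of 22 other settings. The median of the 8 genes was 0.14, against -0.00 over all genes. Without KO_RD a the calls of Pdgfra and Pi16 were lost, and without KO_HFD a or KO_HFD b those of Pi16 and Dcn. Fewer of all genes were called in each of these fits. Dpp4 differed by -0.31 (limma adjusted p = 0.178), on the side of Pdgfra. The epididymis and skeletal muscle genes given above also differed between KO_HFD and KO_RD, and their part in these values was not tested.

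Whether the diet difference was unlike in the 2 genotypes was tested directly, as the diet difference in Smad3-/- mice minus that in wild-type mice. It was called for 4 of 8 genes, all positive, where 18.8% of all genes were called and 12.0% were called positive. Pdgfrb had the largest difference of the 8, at 1.00 ± 0.19 (limma adjusted p = 0.00018), followed by Pi16 at 0.90 ± 0.18 (limma adjusted p = 0.000427). Thy1 had 0.61 ± 0.20 (limma adjusted p = 0.0274) and Dcn 0.49 ± 0.14 (limma adjusted p = 0.0136). The call of Thy1 was lost without WT_RD a, WT_RD b, WT_HFD b, KO_RD a or KO_HFD a, left out in turn, and that of Dcn without WT_RD a or KO_HFD b and with the mean of its probe sets. Without WT_RD a, Pdgfrb and Pi16 were still called, and Dpp4 was called with a negative value (-0.64, limma adjusted p = 0.0427), as it was with the mean of its probe sets (-0.63, limma adjusted p = 0.00842). The median of the 8 genes was 0.35, against -0.02 over all genes. The difference of Pdgfra was -0.11, with an interval of -0.45 to 0.23, so the fall with diet was not shown to differ between genotypes. Lum was at -0.00 with an interval of -0.31 to 0.30. These comparisons share arrays with one another, and the low KO_RD values of Pdgfrb enter 3 of them. The 10 smooth muscle and mural genes had a list mean of 9.12 and 9.15 in KO_HFD and 8.44 and 8.57 in WT_HFD. It was 8.70 and 8.71 in KO_RD and 10.35 and 10.41 in WT_RD. By limma 6 of them had a positive interaction and 0 a negative one, with Cnn1 at 5.28 and Rgs5 at 0.85. The mural genes Abcc9 (0.05), Kcnj8 (0.14), Notch3 (0.22) and Cspg4 (0.45) were not called. White adipocyte genes had a positive interaction in 6 of 6 cases, with a median of 1.28, and were called higher in KO_HFD than in KO_RD in 6 of 6. Of 8 endothelial genes, 4 had a positive interaction and none a negative one by limma. The part of these genes in the Pdgfrb and Pi16 values was not tested.

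Antibody against IgG asks what blocking TGF-beta changed in mice that were already obese. Lum fell by 1.08 ± 0.10, to a 2.12-fold lower value in DIO_ATGF than in DIO_IgG (limma adjusted p = 5.05e-09), and 320 of the 2288 genes called lower fell further. Pdgfra rose by 0.62 ± 0.12, or 1.53-fold (limma adjusted p = 0.000202), with 808 of 2135 genes called higher rising further. Thy1 fell by 0.48 ± 0.14, or 1.39-fold (limma adjusted p = 0.012), and Dcn rose by 0.28 ± 0.10, or 1.21-fold (limma adjusted p = 0.0478). Thus 4 of 8 genes were called, with 2 in each direction, where 24.3% of all genes were called, 11.7% higher and 12.6% lower. The median of the 8 genes was 0.07, against -0.00 over all genes. Dpp4 differed by 0.39 ± 0.15 (limma adjusted p = 0.0506) and Cd34 by -0.21 (limma adjusted p = 0.18). Pi16 differed by 0.14, with an interval of -0.12 to 0.40. Pdgfrb differed by 0.00 with an interval of -0.27 to 0.28, so a change of the size seen for Pdgfra lies outside it.

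The fall of Lum held under each of the 23 other settings tried, between -1.04 and -1.13, and the rise of Pdgfra held in 22 of 23. Many of these settings could not change the difference itself. Lum has 1 probe set, and leaving out diet and genotype arrays changes only the SE and adjusted p. The call of Dcn held in 11 of 23, and that of Thy1 was lost without DIO_IgG a, without DIO_ATGF b and with quantile normalization over all arrays. Macrophage genes averaged 9.51 and 9.53 in DIO_ATGF, against 10.60 and 10.69 in DIO_IgG, and 6 of 7 were called lower. Mesothelial genes averaged 8.46 and 8.48 in DIO_ATGF, against 7.65 and 7.87 in DIO_IgG. Brown adipocyte genes averaged 11.80 and 11.81 in DIO_ATGF, against 7.61 and 7.65 in DIO_IgG. The part of these genes, and of the skeletal muscle genes given above, in the values of Lum and Pdgfra was not tested.

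**Figure D2:**
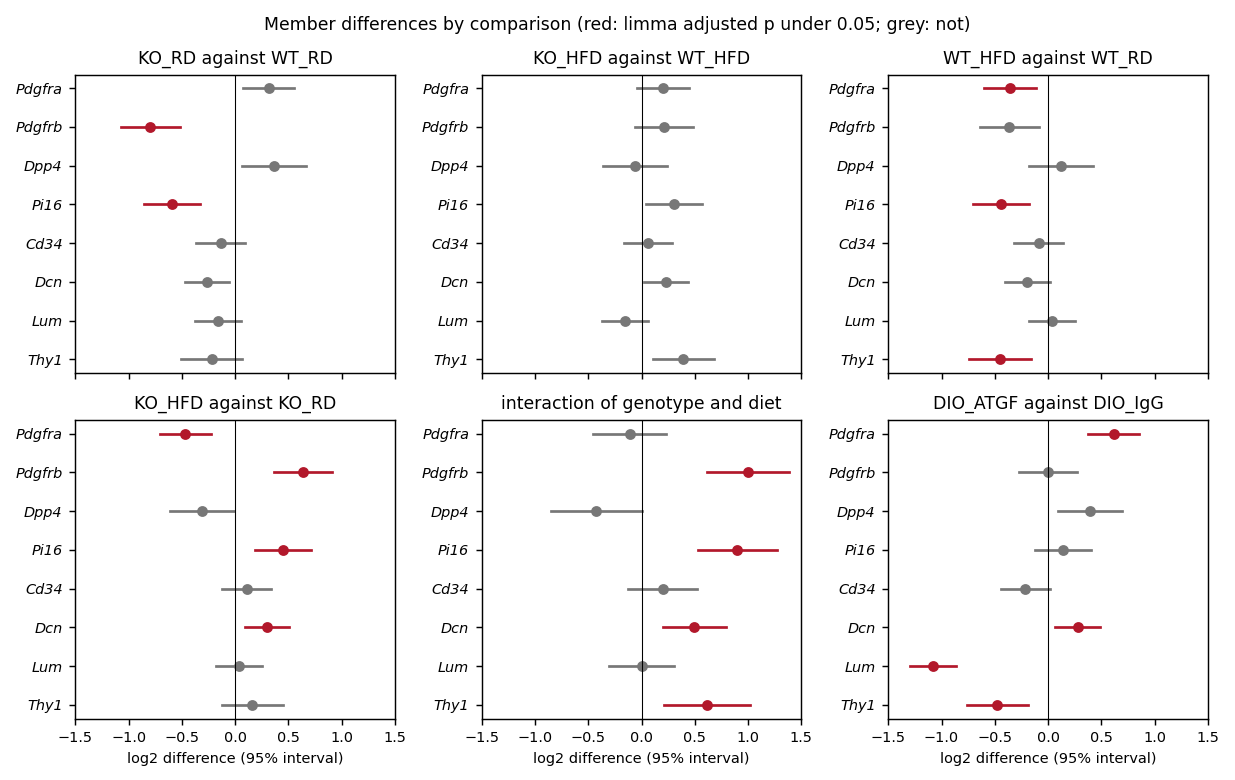
Log2 difference (x axis) with its 95% interval for each of the 8 genes (rows) in the 6 comparisons (panels), in red where called by limma and in grey where not. Pdgfrb reaches -0.79 in KO_RD against WT_RD and 1.00 in the interaction and sits at 0.00 with the antibody, where Lum lies at -1.08.

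Other probe sets of the same genes were compared for direction, with p-values adjusted over all 45101 probe sets. The second Pdgfrb probe set kept every direction called for the first but was not called, with -0.28 (limma adjusted p = 0.139) in KO_RD against WT_RD and 0.45 (limma adjusted p = 0.107) in the interaction. The 2 dimmer Pdgfra probe sets had 0.16 and 0.27 with the antibody, positive as the first but not called by limma. The dim second Pi16 probe set, with a mean of 5.34, had 0.15 in KO_RD against WT_RD and -0.04 in the interaction, and was not called in any comparison. The Pi16 results therefore rest on 1 probe set. The second Dcn probe set read 7.00 on both DIO_ATGF arrays, against 5.98 and 5.86 on the DIO_IgG arrays, a rise of 1.08 ± 0.14 (limma adjusted p = 2.42e-06). That is the direction of the brightest probe set by a larger step, and in the other comparisons the second Dcn probe set was not called. The mean of the brightest Dcn probe set is 13.03, near the top of the scale.

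Dpp4 had 4 probe sets, and all 4 had a positive difference in KO_RD against WT_RD and a negative interaction. The second in brightness fell by 0.61 in KO_HFD against WT_HFD (limma adjusted p = 0.0221) and had an interaction of -0.87 (limma adjusted p = 0.0123). The dimmest, with a mean of 4.97, was called in KO_RD against WT_RD (0.45, limma adjusted p = 0.0452), in the interaction (-0.73, limma adjusted p = 0.0249) and with the antibody (0.44, limma adjusted p = 0.0457). With the antibody the Dpp4 probe set with a mean of 6.09 had 0.13 (limma adjusted p = 0.668). The one with a mean of 5.21 had 0.14 (limma adjusted p = 0.657), so neither was called. On the antibody arrays the set with a mean of 6.09 was the brightest of the 4. It read 7.66 and 7.97 in DIO_ATGF and 7.76 and 7.61 in DIO_IgG, so those groups overlapped. For the probe set brightest over the 12 arrays the interaction was -0.42 (limma adjusted p = 0.179 over genes). Its sign is opposite to that of Pdgfrb and Pi16.

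**Figure D3:**
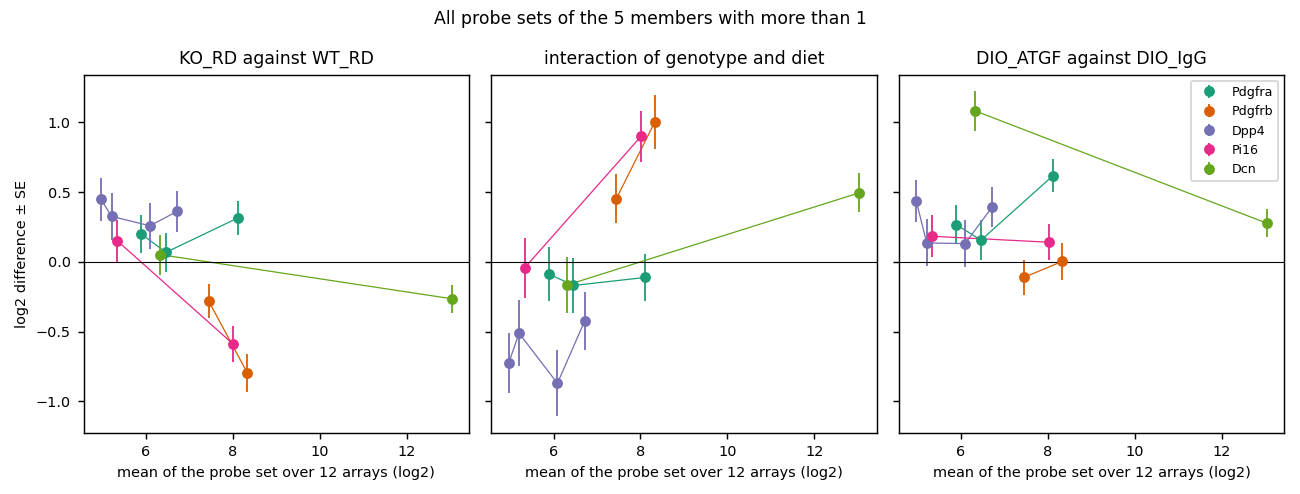
Log2 difference ± SE (y axis) against the mean of the probe set over 12 arrays (log2, x axis) for all probe sets of the 5 genes with several, in 3 comparisons, with lines joining probe sets of 1 gene. Both Pdgfrb points lie below 0 in KO_RD against WT_RD, the dim Pi16 point leaves the direction of the bright one, and the dimmer Dcn point is at 1.08 with the antibody.

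Patterns over the 12 arrays, each gene centred within its experiment, were compared by Pearson correlation as a description, since the arrays share groups. Pdgfrb and Pi16 were the most alike pair among the 8 genes (r = 0.877), and Pi16 and Dcn followed one another at 0.719 and Pdgfra and Dpp4 at 0.684. Pdgfra and Lum ran opposite (r = -0.744), as did Pdgfrb and Dpp4 (r = -0.661). Pdgfra and Pdgfrb had r = -0.331, and Dcn and Lum -0.512, which turned to 0.197 over the 8 diet and genotype arrays alone. Among 2583 genes that were bright and variable enough to compare, the most like Pdgfra were Itpr2 (0.943), Mlxipl (0.928) and Nrbp2 (0.914). Those most like Pdgfrb were Ppig (0.947), Plagl1 (0.935) and Tmem109 (0.935), and those most like Pi16 were Pa2g4 (0.935), Nenf (0.926) and Ppp1r14b (0.924). Dpp4 was most like Sdcbp2 (0.913), Cd34 most like Ntsr2 (0.845) and Thy1 most like Fes (0.923). Dcn was most like Jchain (0.974), and Lum most like Ccn5 (0.985), Ms4a7 (0.98) and Cd209b (0.979). The likeness to Lum is carried mostly by the antibody arrays, since over the 8 diet and genotype arrays alone it was 0.759 for Ccn5, 0.651 for Ms4a7 and 0.75 for Cd209b.

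The counts of the wider families are read against the shares of all genes called, 24.0% in KO_RD against WT_RD and 24.3% with the antibody, and no family was tested as a whole. Of 10 PDGF ligands and receptors and their kinase relatives, 3 were called in KO_RD against WT_RD, all lower, with Pdgfa at -0.49 and Csf1r, the macrophage receptor, at -0.33 beside Pdgfrb. With the antibody Csf1r fell by 0.68 and Pdgfa, a ligand of the Pdgfra receptor, by 0.50, while Pdgfra itself rose. The Dpp4 relative Fap, a protease of activated fibroblasts, rose by 0.44 in KO_HFD against KO_RD and fell by 1.06 with the antibody, and of the 8 genes of that family no other was called with the antibody. Of 5 sialomucins with Cd34, Cd164 fell by 1.15 in KO_RD against WT_RD and by 0.29 with the antibody, where Podxl rose by 0.82. Among the 8 measured Ly6 relatives of Ly6a, Ly6f rose by 2.95 in WT_HFD against WT_RD and Ly6h fell by 1.42 with the antibody.

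Dcn and Lum belong to 15 measured small leucine-rich proteoglycans and their close relatives, of which 10 were called with the antibody. Podn rose by 1.07, Fmod by 0.69 and Ogn by 0.37 together with Dcn. Aspn fell by 1.17 together with Lum, Prelp by 0.98 and Bgn by 0.40, and Optc and Epyc were called lower as well. The family median was -0.04, so it had no common direction. In KO_RD against WT_RD 1 was called higher and 4 lower, with Prelp at -1.88, Bgn at -0.97 and Ogn at -0.51. In the interaction 5 were called, all positive, with Ogn at 0.96 and Bgn at 0.94.

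**Figure D4:**
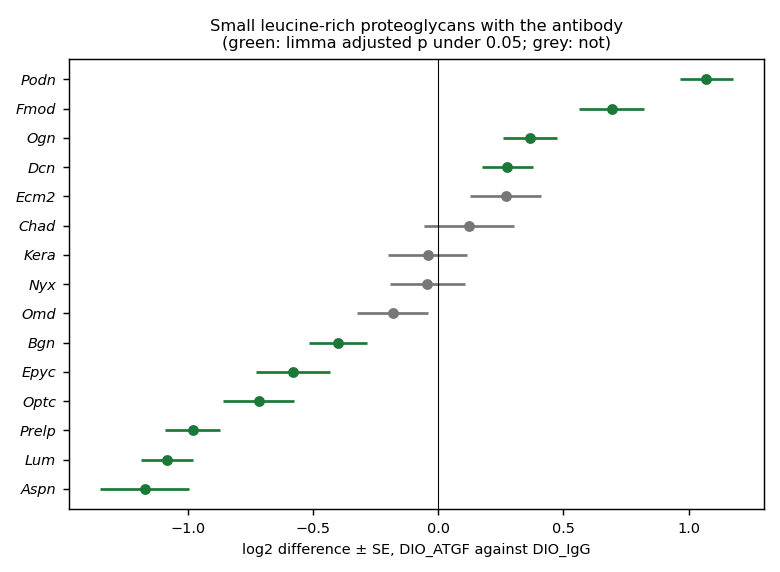
Log2 difference ± SE (x axis) in DIO_ATGF against DIO_IgG for the 15 measured small leucine-rich proteoglycans and relatives (rows, ordered by value), in green where called by limma. Podn lies at 1.07 and Dcn at 0.28 on the right, and Lum at -1.08 and Aspn at -1.17 on the left.

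Most collagen and fibril genes were called between KO_RD and WT_RD and with the antibody. Of 16, 12 were called lower and 1 higher in KO_RD against WT_RD, with a median of -0.81, and Fn1, which encodes fibronectin, fell by 2.02 and Sparc by 1.31. The gene called higher there was Mfap4, at 0.72, and Col1a1 (0.004), Col1a2 (-0.10) and Col14a1 (-0.32) were not called. With the antibody 12 were called lower and 1 higher, with a median of -0.77, and Col3a1 and Col5a2 each fell by 1.48. In the interaction 11 were called, all positive, with a median of 0.87. In KO_HFD against WT_HFD 1 was called higher and 1 lower, in WT_HFD against WT_RD 7 were called lower, and in KO_HFD against KO_RD 11 were called higher and 1 lower. Of 17 measured genes common to fibroblasts, 11 were called lower and 2 higher in KO_RD against WT_RD, where Vim, which encodes vimentin, fell by 2.02. With the antibody 6 were called lower and 3 higher, with S100a4 at -1.80 and Gpx3 at 1.60. Pi16 and Fap are themselves in that list.

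The precursor lists were mixed. Of 11 measured interstitial progenitor genes, which include Dpp4 and Pi16, 3 were called lower in KO_RD against WT_RD, with Cd248 at -0.64 and Anxa3 at -0.49 beside Pi16. With the antibody Sema3c fell by 1.05 and Cd55 by 0.75, and the list median was 0.00. Of 11 committed preadipocyte genes, 3 were called higher and 5 lower in KO_RD against WT_RD, where Pparg, the master regulator of fat cell formation, fell by 1.82 and Cebpa by 1.07. Pparg had an interaction of 1.99. White adipocyte genes, which mark mature fat cells, averaged 10.75 and 10.88 in KO_RD against 12.30 and 12.35 in WT_RD. With the antibody 4 preadipocyte genes were called higher and 3 lower, with Cd24a at 1.03 and Col15a1 at -1.17. Of 8 genes of the Cd142-positive precursors, Mgp, an inhibitor of calcification, had the largest interaction at 1.27, and with the antibody 2 were called higher and 1 lower. Of 10 pericyte and mural genes, which include Pdgfrb, 5 were called lower in KO_RD against WT_RD and 5 had a positive interaction, with Des, the intermediate filament of muscle, at 4.05 and Acta2 at 2.26. Pdgfrb is itself among these, and the other 5, Abcc9, Kcnj8, Notch3, Cspg4 and Anpep, were not called in the interaction.

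Markers of other cells that share these genes were read beside them. Of 8 endothelial genes, which matter for Cd34, 3 were called lower in KO_RD against WT_RD, with Cldn5 at -1.25, and 1 with the antibody, Tie1 at -0.50. Their list mean was 9.66 and 9.67 in DIO_ATGF and 9.83 and 9.91 in DIO_IgG. Of 7 T cell genes, none was called in the diet and genotype comparisons by limma, where 1 had an unadjusted p under 0.05 in KO_RD against WT_RD and 0 in the others, and with the antibody Cd8a fell by 0.42. Of 8 neuron genes, Rbfox3 alone was called in KO_RD against WT_RD, where it fell by 1.71. The other 7 were not called there, and the list median was 0.11. With the antibody Nefl rose by 0.66 and Stmn2 by 0.36 while Elavl3 fell by 0.36. Epithelial genes averaged 8.85 and 9.04 in KO_RD and 7.80 and 8.00 in WT_RD.

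**Figure D5:**
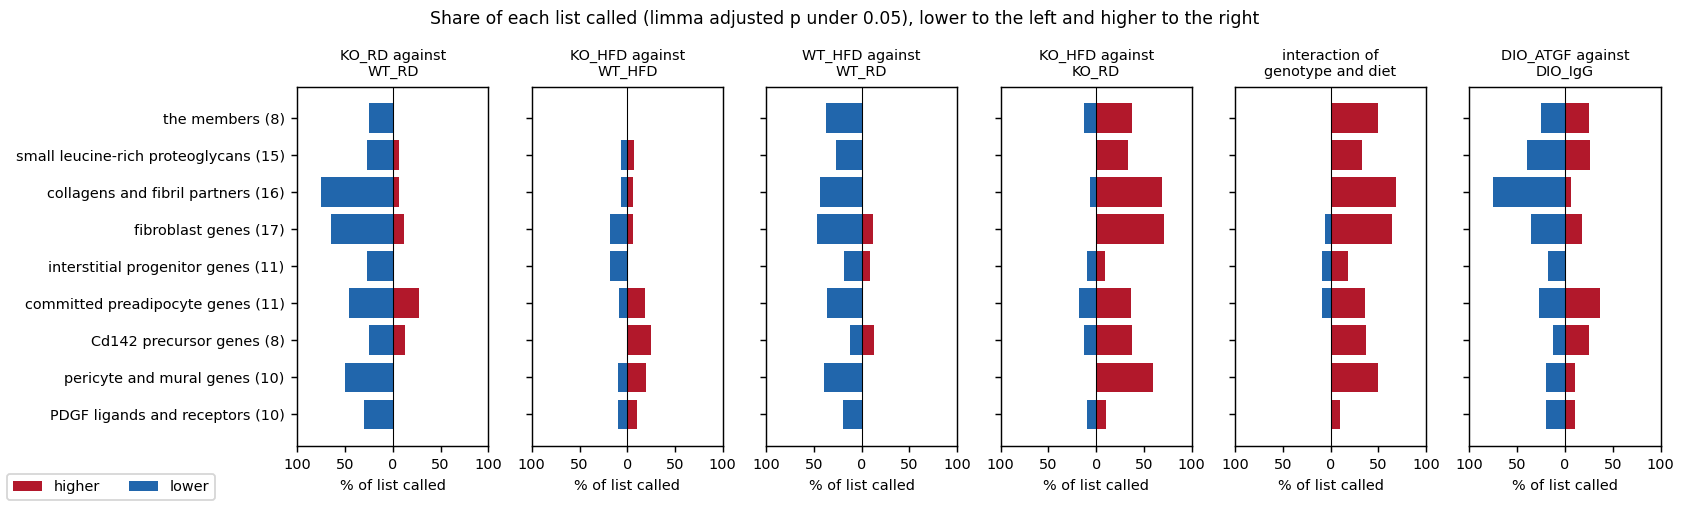
Share of each gene list called by limma (x axis, %), lower to the left and higher to the right, in 6 comparisons (panels), with the number of measured genes in brackets. Of 16 collagen and fibril genes 12 were called lower both in KO_RD against WT_RD and with the antibody, and of the 8 markers 2 were in each of these comparisons.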

How the data were processed

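Total RNA was extracted with Trizol and labelled as biotinylated cRNA from 6 ug per array, per the labels' protocols. RMA in Partek gave the deposited log2 values, per the submitters' processing notes, which give no versions here. RMA corrects background, normalizes quantiles and summarizes the probes of a probe set, so differences are relative to the arrays normalized together. Medians and spreads differed between the 8 diet and genotype arrays and the 4 antibody arrays, which may have been normalized separately. No per-sample column was left unused (0).

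The platform annotation gave 1 gene for 34958 of 45101 probe sets, several genes for 932 and no gene for 9211. The brightest over 12 arrays stood for each of 18194 genes (9012 had several). Of these, 18032 matched a GRCm38.p6 table by gene ID and 0 symbols changed.

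Differences were tested, two-sided, in R 4.3.3 with limma 3.58.1 (group means over 12 arrays, eBayes with an intensity trend, 6 residual and 20.4 prior degrees of freedom) and adjusted by Benjamini-Hochberg at 0.05, in 6 comparisons. Precision is limited by the number of arrays: SEs of the 8 genes were 0.10 to 0.15 in comparisons of 2 groups and 0.14 to 0.21 for the interaction. The script was tested on simulated data. All 8 genes were reported. From each other list the up to 3 called genes with the smallest p in a comparison could be named. A few proteoglycans, collagen and fibril genes and mural genes were named beyond that after their values were seen. For patterns over arrays, values were centred within each experiment, and genes at or below the median level or with an SD under 0.25 were left out. The marker genes and all gene lists were chosen with earlier results of these data known. The settings tried were robust eBayes, eBayes with no trend, leaving out genes under the 40th percentile of level, the second brightest probe set or the mean over probe sets, a fit of single probe sets, median centring, quantile normalization over all arrays, the arrays of 1 experiment, the replicate letter as a block, and leaving out a group or an array. Same-lettered arrays of different groups deviated from their group means with correlations of -0.161 to 0.169, so the letters are not taken to pair the samples.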

Additional observations from a re-analysis of the deposited data

Results flagged for a closer look

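The response to the high fat diet differed between genotypes for 4 of the 8 marker genes, by the test of the difference itself, where 18.8% of all genes were called and 12.0% were called positive. The diet difference in Smad3-/- mice minus that in wild-type mice was 1.00 log2 for Pdgfrb, 0.90 for Pi16, 0.61 for Thy1 and 0.49 for Dcn. In each of the 4 genes the diet difference was positive in Smad3-/- mice and negative in wild-type mice, but Pi16 alone was called in both genotypes. Pdgfrb in wild-type mice (-0.36, limma adjusted p = 0.0872), Dcn in wild-type mice (-0.19, limma adjusted p = 0.301) and Thy1 in Smad3-/- mice (0.16, limma adjusted p = 0.543) were not called. The second probe set gave Pdgfrb 0.45, Pi16 -0.04 and Dcn -0.17, none called by limma. Epididymal, smooth muscle and skeletal muscle genes moved across the same 4 groups by more than the 8 marker genes did, and the share of these differences in the marker values was not tested.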

How the results depend on the processing

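With 2 arrays per group, small differences depend on the settings. Over settings other than leaving out an array, the differences of the 8 genes kept their direction and their call or lack of one in 424 cases. With the direction kept, 25 calls were lost and 18 gained. The sign changed in 6 cases where a call was lost, and in 7 cases without a call in either fit. Leaving out an array gave 505, 44, 13, 0 and 14. In many of the cases with an array left out, that array was in neither group compared. The difference and its direction could not change there, only the SE and adjusted p. The causes were not tested.

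With the second brightest probe set, the number of the 8 genes called was 0 in KO_RD against WT_RD and 0 in KO_HFD against KO_RD, 1 in KO_HFD against WT_HFD, 1 in WT_HFD against WT_RD and 2 in the interaction. The 3 genes with a single probe set kept it there, and p-values were adjusted over all probe sets. Of 45101 probe sets, 7272, 4767, 2933, 3098 and 5353 were called in these comparisons, in the same order. With the second brightest probe set the call was lost and the sign changed for Dcn in KO_HFD against KO_RD (-0.024 ± 0.14) and in the interaction (-0.17 ± 0.20). The same held for Pdgfra in WT_HFD against WT_RD (0.026 ± 0.14). It held as well for Pi16 in KO_HFD against KO_RD (-0.11 ± 0.15), in KO_RD against WT_RD (0.15 ± 0.15) and in the interaction (-0.043 ± 0.21). None of these values of the second probe sets was called, so they show lost calls and no opposite difference. The mean of the probe sets gave 1 call in KO_HFD against KO_RD and 1 in WT_HFD against WT_RD, where 2573 and 1700 of all genes were called. Quantile normalization over all arrays gave 2 in KO_HFD against WT_HFD, where 2376 of all genes were called. Robust eBayes and a filter on dim genes each gave 4 in KO_RD against WT_RD. There robust eBayes called 4375 of 18194 genes, and the filter left 3952 called among fewer genes, a larger share.

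Leaving out each array in turn gave 2 to 4 calls in KO_RD against WT_RD (4 without WT_HFD a or without WT_HFD b), 0 to 3 in WT_HFD against WT_RD, where 1296 of all genes were called without WT_RD a against 1966 with it, 2 to 4 in KO_HFD against KO_RD, where 2035 were called without KO_HFD b against 3150 with it, 0 to 2 in KO_HFD against WT_HFD, 3 to 4 in the interaction (1 of 3 negative without WT_RD a) and 2 to 4 with the antibody (2 without DIO_IgG a or DIO_ATGF b). With the replicate letter as a block, the counts were 2 in KO_RD against WT_RD, 0 in KO_HFD against WT_HFD, 2 in WT_HFD against WT_RD, 3 in KO_HFD against KO_RD, 4 in the interaction and 4 with the antibody, where Dcn lost its call and Dpp4 gained one. Of all genes, 4358, 1947, 1959, 3128, 3408 and 4412 were called with the block, in the same order.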
